A study of Homo sapiens with 9 samples.

Results

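The GIMAP genes form a cluster on human chromosome 7 that encodes the GTPases of the immunity-associated proteins. Its members were taken as the rows of the count table whose Ensembl identifier, with the version removed, carries the symbol GIMAP1, GIMAP2, GIMAP4, GIMAP5, GIMAP6, GIMAP7 or GIMAP8 in GENCODE 29. All 7 were found among the 20265 rows of the table. The cluster was chosen by measured values, because GIMAP2 was lower in IRF2 knockout cells than in WT cells of these same libraries. The IRF2KO against WT values of its members are therefore given as a description, with no test.

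GIMAP proteins are membrane-associated GTPases, related to the septins and dynamins, that bind GTP through an AIG1 domain and can assemble on the surface of organelles. They are best known from lymphocytes, where several of them are needed for the survival of T cells. GIMAP2 has been placed on the surface of lipid droplets in a human T cell line, and the mouse cluster lacks it. IRF2 is a DNA-binding protein of the interferon regulatory factor family and acts on interferon-responsive promoters both as a repressor and as an activator.

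The study measured RNA in U937, an established human monocytic line, by RNA-seq of 9 libraries. Per the series text the cells were U937-Cas9, so all groups are taken to carry the Cas9 nuclease used for knockouts. Knockout cells labelled as carrying pIRF2 (IRF2KO_pIRF2), cells with an IRF2 knockout alone (IRF2KO) and WT cells gave 3 libraries each. No treatment is labelled. The labels do not state what pIRF2 encodes, how IRF2 was edited, or whether a group is 1 clone or a pool of cells. Nor do they state that the replicates of a group grew apart as separate cultures, so the p-values speak of the spread among these libraries alone, and that spread may be technical.

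Libraries held 14824907 to 23108288 counts, and 3 counts, taken as the floor of detection, equalled 0.129 to 0.196 CPM (read counts per library, each library brought to one size with TMM factors) in a single library. IRF2 itself had 15.2, 18.1 and 18.4 CPM in IRF2KO_pIRF2 libraries, 23.5, 25.9 and 25.5 CPM in IRF2KO libraries, and 37.1, 39.1 and 44.1 CPM in WT libraries. IRF2 RNA was thus lowest in the libraries labelled pIRF2. What the construct or the edit does to these counts is not labelled and was not tested, so pIRF2 is used here only as a name. Mitochondrially encoded genes took 17.3% to 18.0% of counts in IRF2KO_pIRF2 libraries, 12.2% to 18.8% in IRF2KO libraries and 12.7% to 17.1% in WT libraries. IRF2KO replicate 2 and WT replicate 1 stood farthest apart on the first principal component. Myeloid markers summed to 6160 to 6454 CPM in IRF2KO_pIRF2 libraries, 6610 to 10680 CPM in IRF2KO libraries and 5227 to 8201 CPM in WT libraries, led by the granule protease PRTN3. Of 28 T and NK cell markers, 11 had no count in any library, among them CD3D, LCK and PRF1, and NKG7 made up most of the list's summed 347 to 374 CPM in IRF2KO_pIRF2 libraries, 341 to 482 CPM in IRF2KO libraries and 309 to 387 CPM in WT libraries. The 10 B cell markers summed to 27.9 to 32.3 CPM in IRF2KO_pIRF2 libraries, 34.6 to 51.5 CPM in IRF2KO libraries and 23.1 to 28.7 CPM in WT libraries, with MS4A1 at 0. The B cell sum thus ran highest where GIMAP2 was lowest, and the myeloid and the T and NK sums also had their highest library there. Of the 7 tested B cell markers, 1 was higher in IRF2KO_pIRF2 than in IRF2KO and 6 were lower. The part of these markers in the GIMAP values was not tested.

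GIMAP2 and GIMAP1, the 2 members with enough reads to be tested, are shown by promoter sequence as the members whose levels could be compared. The GIMAP2 run reaches past the RefSeq start, and the GIMAP1 run ends before it. The letters searched were AANNGAAA, a core that IRF proteins are known to bind, on both strands of the 300 bases that run from 250 bases before to 50 bases after each gene's start in RefSeq (GRCh38.p14). Capitals mark matches, which in the run shown for GIMAP2 all lie on the opposite strand. GIMAP2 is shown at chr7:150685456-150685725 and GIMAP1 at chr7:150716363-150716580, both on the plus strand.

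GIMAP2: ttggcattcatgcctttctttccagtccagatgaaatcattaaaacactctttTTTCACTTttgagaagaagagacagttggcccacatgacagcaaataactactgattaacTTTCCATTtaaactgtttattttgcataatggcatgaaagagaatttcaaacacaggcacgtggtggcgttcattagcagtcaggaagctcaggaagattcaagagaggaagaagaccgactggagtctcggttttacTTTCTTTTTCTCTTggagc
GIMAP1: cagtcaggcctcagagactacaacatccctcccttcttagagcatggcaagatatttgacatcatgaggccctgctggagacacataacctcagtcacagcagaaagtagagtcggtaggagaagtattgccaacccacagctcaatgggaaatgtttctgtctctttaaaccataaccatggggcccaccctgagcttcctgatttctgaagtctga

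The GIMAP2 promoter held 4 matches. They begin 197 and 137 bases before the RefSeq start and at bases 2 and 8 after it, and the last pair overlap each other at chr7:150685707-150685714 and chr7:150685713-150685720, within the first exon of GENCODE 29. The GIMAP1 promoter held 1 match, on the gene's own strand at chr7:150716631-150716638, past the end of the run shown. All 7 members had a RefSeq promoter entry, and AANNGAAA was found in 6 of 7, with GIMAP6 the exception. The same letters were found in 23.2% of 27305 promoters of this length and in 15.9% of the 9161 promoters of tested genes. A match is a run of letters and says nothing of whether a protein binds there, and members with no counts in any group, GIMAP4 and GIMAP7, held it too.

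In WT and IRF2KO_pIRF2 cells the cluster was read mainly through GIMAP2 and, at a lower level, GIMAP1. In IRF2KO cells GIMAP1 held 27 of the 56 counts of these 2 genes. GIMAP2 and GIMAP1 passed the filter on low counts; the other 5 members did not. Along the chromosome the order is GIMAP8, GIMAP7, GIMAP4, GIMAP6, GIMAP2, GIMAP1 and GIMAP5, with GIMAP6 on the minus strand and the others on the plus strand. In bulk RNA, fewer cells that express a gene and less of its RNA per cell cannot be told apart.

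**Figure D1:**
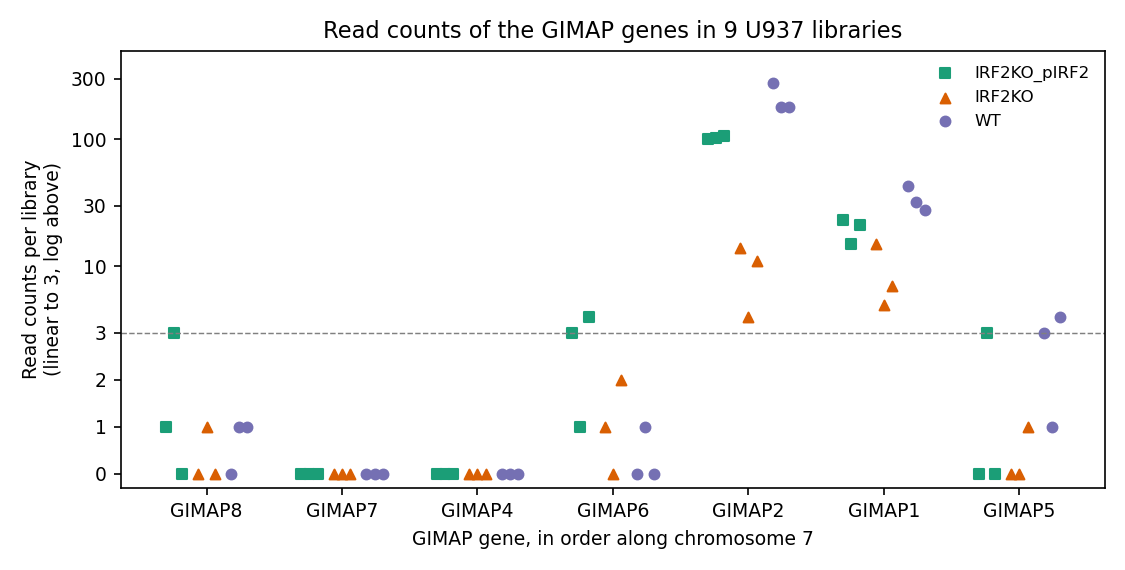
Read counts per library (vertical axis, linear up to 3 counts and logarithmic above) for the 7 GIMAP genes in their order along chromosome 7 (horizontal axis). Each point is 1 library, with squares for IRF2KO_pIRF2, triangles for IRF2KO and circles for WT, and the dashed line marks 3 counts. GIMAP2 lies at 101 to 106 counts in IRF2KO_pIRF2 libraries, 4 to 14 in IRF2KO libraries and 179 to 278 in WT libraries, while no member other than GIMAP2 and GIMAP1 goes above 4.

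GIMAP2 (ENSG00000106560, chr7:150685697-150693641) encodes the member found on lipid droplets. It had 101, 102 and 106 counts in IRF2KO_pIRF2 libraries, 14, 4 and 11 counts in IRF2KO libraries, and 278, 180 and 179 counts in WT libraries. Its level was 4.34, 5.06 and 5.05 CPM in IRF2KO_pIRF2 libraries, 0.793, 0.202 and 0.620 CPM in IRF2KO libraries, and 14.3, 11.7 and 9.19 CPM in WT libraries. The 3 groups did not overlap, with the IRF2KO_pIRF2 libraries between the other groups. The choice of GIMAP2 by its IRF2KO and WT values favoured such a gap. The share of all tested genes without overlap is not given here. Means were 4.82 ± 0.413 CPM in IRF2KO_pIRF2, 0.539 ± 0.304 CPM in IRF2KO and 11.8 ± 2.56 CPM in WT (SD, n = 3 each). The lowest library, IRF2KO replicate 2, was close to the floor of detection.

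In IRF2KO_pIRF2 against IRF2KO, GIMAP2 rose by 3.17 ± 0.34 on the log2 scale (SE), a 9.0-fold higher level, with an adjusted p of 0.00085 (edgeR quasi-likelihood test, Benjamini-Hochberg over 11517 genes). The IRF2KO libraries of this comparison are also those of the contrast that singled out GIMAP2, so low values there favour a rise. GIMAP2 was the 1 member called of the 2 tested; 0.339% of all tested genes were called higher, and 0.365% in either direction. Both tested members had an unadjusted p under 0.05, and DESeq2 and limma-voom each called 1. The GIMAP2 rise kept its direction and its call in all 19 alternatives, with log2 fold changes of 2.76 to 3.57.

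In IRF2KO_pIRF2 against WT, GIMAP2 was 2.44-fold lower, with a log2 fold change of -1.29 ± 0.24 (SE), and did not pass the test (adjusted p = 0.11, edgeR). The WT libraries also belong to the contrast that singled out GIMAP2, so high values there favour a fall under every setting. No tested member passed it, against 0.0781% of all tested genes called in either direction. Both members had an unadjusted p under 0.05, DESeq2 called 1 and limma-voom called 0. The call depends on settings: the adjusted p for GIMAP2 was 5.6e-05 with DESeq2 and 0.0064 with edgeR without IRF2KO replicate 2, and it ran up to 1 over the 19 alternatives. When the fit took in each library's mitochondrial percentage, the log2 fold change was -0.84.

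In IRF2KO against WT, the contrast that singled out GIMAP2, its level was 22-fold lower, a log2 fold change of -4.46 ± 0.32 (SE). GIMAP2 was the 1 member of 2 tested that the fit called there, which the choice of the cluster fixed, and 0.365% of all tested genes were called lower and 0.417% in either direction. The mean in IRF2KO_pIRF2 libraries stood 38.2% of the way up the gap between the IRF2KO mean and the WT mean on the CPM scale. In the libraries with over 15% mitochondrial counts, GIMAP2 averaged 4.82 CPM in 3 IRF2KO_pIRF2 libraries and 0.411 CPM in 2 IRF2KO libraries, and was 9.19 CPM in the 1 WT library. In those at or under 15%, GIMAP2 was 0.793 CPM in the 1 IRF2KO library and averaged 13 CPM in 2 WT libraries. As the IRF2KO and WT libraries did not overlap, any split had to leave GIMAP2 lower in IRF2KO than in WT. This split therefore says nothing of the mitochondrial share, and no IRF2KO_pIRF2 library lay at or under 15%.

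Per kilobase of exon, GIMAP2 stood at 2.3 CPM per kb in IRF2KO_pIRF2 cells, 0.257 CPM per kb in IRF2KO cells and 5.60 CPM per kb in WT cells. Among all tested genes on this scale those levels fell at the 34.5th percentile in IRF2KO_pIRF2, the 6.25th in IRF2KO and the 56.7th in WT. GIMAP2 RNA was thus at a middle level in WT cells and among the lowest of the tested genes in IRF2KO cells. The choice of GIMAP2 by its IRF2KO and WT values favoured a low rank in IRF2KO and a high rank in WT. Its counts in the other groups also carried it past the filter on low counts, so the IRF2KO rank is a description only. Of the 2046 runs of 50 bases in its transcripts, 53, or 2.59%, also occur in transcripts of other genes, none of them a GIMAP gene.

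**Figure D2:**
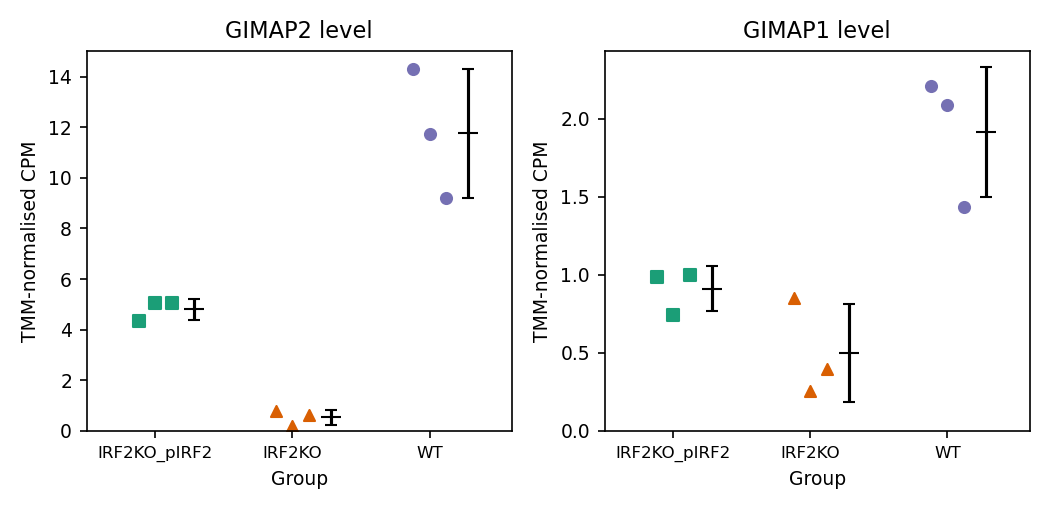
TMM-normalised CPM of GIMAP2 (left panel) and GIMAP1 (right panel) on linear axes that start at 0, by group. Points are single libraries and the bar beside each group is its mean ± SD (n = 3). For GIMAP2 the IRF2KO_pIRF2 libraries, at 4.34 to 5.06 CPM, lie clear of both the IRF2KO and the WT libraries; for GIMAP1 one IRF2KO library, at 0.850 CPM, lies within the range of the IRF2KO_pIRF2 libraries.

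GIMAP1 (ENSG00000213203, chr7:150716557-150724284) is needed for mature T and B cells in the mouse. It had 23, 15 and 21 counts in IRF2KO_pIRF2 libraries, 15, 5 and 7 counts in IRF2KO libraries, and 43, 32 and 28 counts in WT libraries. Its level was 0.988, 0.744 and 1.0 CPM in IRF2KO_pIRF2 libraries, 0.850, 0.253 and 0.394 CPM in IRF2KO libraries, and 2.21, 2.09 and 1.44 CPM in WT libraries. WT libraries lay above all others, while the ranges of IRF2KO_pIRF2 and IRF2KO overlapped through IRF2KO replicate 1. For GIMAP1 too, the share of all tested genes with such a gap is not given, so the gap is a description only. Means were 0.911 ± 0.145 CPM in IRF2KO_pIRF2, 0.499 ± 0.312 CPM in IRF2KO and 1.91 ± 0.417 CPM in WT (SD, n = 3 each).

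GIMAP1 did not pass the test in IRF2KO_pIRF2 against IRF2KO, where its log2 fold change was 0.89 ± 0.40 (SE, adjusted p = 0.44, edgeR). It did not pass in IRF2KO_pIRF2 against WT either, where its log2 fold change was -1.06 ± 0.32 (SE, adjusted p = 0.95, edgeR). Neither result crossed the threshold in any of the 19 alternatives. In IRF2KO against WT, GIMAP1 was 3.84-fold lower, a log2 fold change of -1.94 ± 0.37 (SE), which is given as a description. The GIMAP1 mean in IRF2KO_pIRF2 libraries stood 29.1% of the way up the CPM gap between IRF2KO and WT. Over 15% mitochondrial counts, GIMAP1 averaged 0.911 CPM in 3 IRF2KO_pIRF2 libraries and 0.324 CPM in 2 IRF2KO libraries, and was 1.44 CPM in the 1 WT library.

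Per kilobase of exon, GIMAP1 stood at 0.188 CPM per kb in IRF2KO_pIRF2 cells, 0.103 CPM per kb in IRF2KO cells and 0.395 CPM per kb in WT cells. On the same scale the GIMAP2 level was above the GIMAP1 level in every group. Of its exonic bases, 11.3% are shared on the same strand with GIMAP5 and the GIMAP1-GIMAP5 readthrough gene, so counts of GIMAP1 are uncertain to that extent. The readthrough gene had 0 counts in all 9 libraries, and all of its exonic bases overlap GIMAP1 or GIMAP5.

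The share of GIMAP1 among the reads of the 2 detected members stood apart in IRF2KO libraries. GIMAP1 took 18.6%, 12.8% and 16.5% of the summed GIMAP1 and GIMAP2 counts in IRF2KO_pIRF2 libraries, 51.7%, 55.6% and 38.9% in IRF2KO libraries, and 13.4%, 15.1% and 13.5% in WT libraries. Every IRF2KO library lay above every library of the other groups. Pooled over libraries the share was 59 of 368 counts, or 16.0% (12.4% to 20.2%), in IRF2KO_pIRF2, 27 of 56, or 48.2% (34.7% to 62.0%), in IRF2KO and 103 of 740, or 13.9% (11.5% to 16.6%), in WT, with exact Clopper-Pearson 95% intervals that cover counting error only. Since the fall of GIMAP2 in IRF2KO chose the genes, the IRF2KO share has no test. Between IRF2KO_pIRF2, at 16.0 ± 2.91%, and WT, at 14.0 ± 0.945% (SD, n = 3 each), the share did not differ beyond the spread of the libraries (two-sided exact permutation p = 0.4, where 0.1 is the smallest that 3 against 3 can give).

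**Figure D3:**
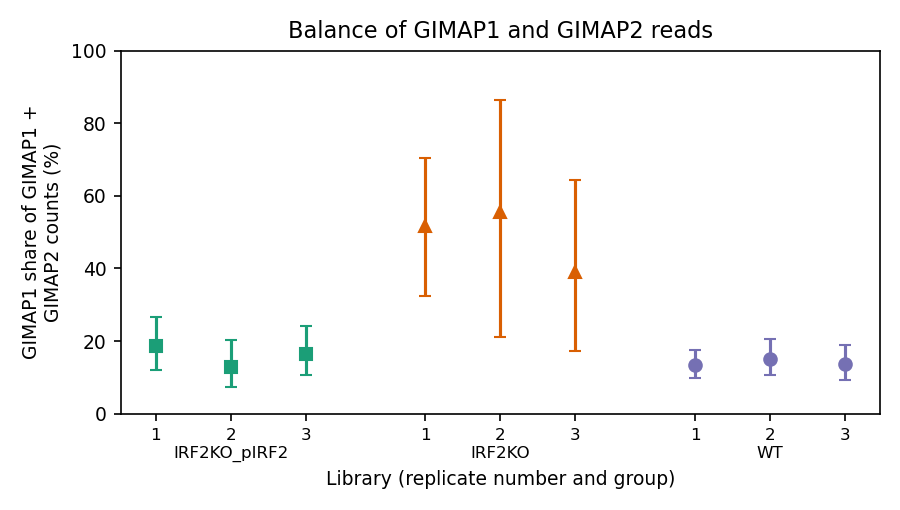
Share of GIMAP1 in the summed counts of GIMAP1 and GIMAP2 (vertical axis, percent) in each of the 9 libraries (horizontal axis). Points are single libraries and bars are exact 95% intervals for counting error. The 3 IRF2KO libraries sit at 38.9% to 55.6%, above the 12.8% to 18.6% of the IRF2KO_pIRF2 libraries and the 13.4% to 15.1% of the WT libraries.

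The other 5 members were at or near the floor of detection in every group, so no difference could be detected at this depth. GIMAP5 (chr7:150722253-150750033), whose loss causes lymphopenia in rats and mice, had 0, 3 and 0 counts in IRF2KO_pIRF2 libraries, 0, 0 and 1 in IRF2KO libraries, and 3, 1 and 4 in WT libraries. GIMAP6 (chr7:150625375-150632648), which binds a protein of the ATG8 autophagy family, had 3, 1 and 4 counts in IRF2KO_pIRF2 libraries, 1, 0 and 2 in IRF2KO libraries, and 0, 1 and 0 in WT libraries. GIMAP8 (chr7:150450630-150479392), the largest protein of the family, had 1, 3 and 0 counts in IRF2KO_pIRF2 libraries, 0, 1 and 0 in IRF2KO libraries, and 0, 1 and 1 in WT libraries. None of the 3 reached more than 4 counts in a library. GIMAP4 (chr7:150567277-150573955), a lymphocyte protein, and GIMAP7 (chr7:150514830-150521073), which can dimerise with GIMAP2 and stimulate its GTP hydrolysis, had 0 counts in all 9 libraries. A count of 0 allows up to 3 counts, or 0.129 to 0.196 CPM in a single library. GIMAP5 shares 35.4% of its exonic bases with neighbouring genes on its strand, so its few counts are also uncertain.

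Of 37 other genes of the table that start within 1 Mb of the outermost members, 22 were tested and 0 were called in any of the 3 comparisons by edgeR, DESeq2 or limma-voom. Over all tested genes edgeR called 0.0781% to 0.417% per comparison, a share at which 22 genes hold few calls or none. At an unadjusted p under 0.05 there were 5 in IRF2KO_pIRF2 against IRF2KO, 1 in IRF2KO_pIRF2 against WT and 8 in IRF2KO against WT, and 11.2%, 3.92% and 18.7% of all tested genes had such a p in the same order. The median log2 fold change of the 22 neighbours was -0.32 in IRF2KO_pIRF2 against IRF2KO, where 18 of 22 were negative, and 0.35 in IRF2KO against WT, where 19 of 22 were positive. Over all tested genes these medians were 0.0016 and -0.013. Most neighbours thus had the opposite sign to GIMAP2 and GIMAP1, but single libraries decided the size. Without IRF2KO replicate 2 the medians were -0.11 and 0.14. Without both that library and WT replicate 1, the median in IRF2KO against WT was 0.01 and 13 of 22 were positive.

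**Figure D4:**
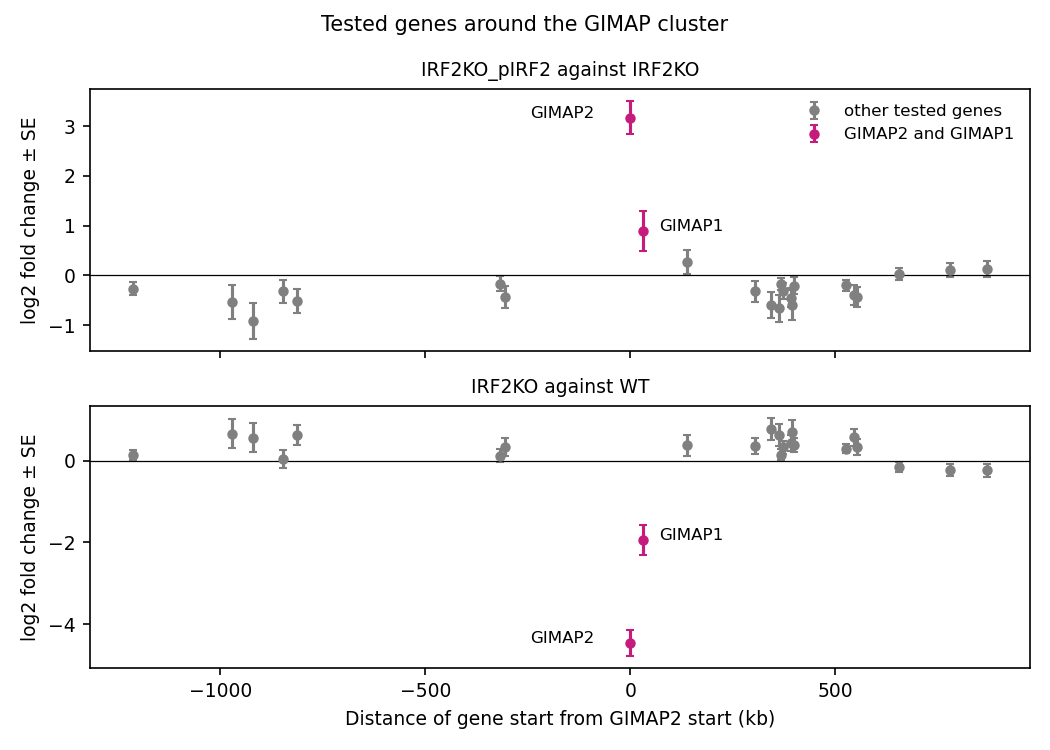
Log2 fold change ± SE (vertical axes) of the tested genes around the GIMAP cluster against the distance of each gene's start from the GIMAP2 start in kb (horizontal axis), for IRF2KO_pIRF2 against IRF2KO (upper panel) and IRF2KO against WT (lower panel). GIMAP2 stands at 3.17 and -4.46 and GIMAP1 at 0.89 and -1.94, while the 22 other genes span -0.92 to 0.28 in the upper panel and -0.24 to 0.78 in the lower, with medians of -0.32 and 0.35.

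Among the tested genes, those whose levels ran most like those of GIMAP2 lay outside the cluster. GIMAP1, with few counts, was the only other member that could be compared, so this says little of the cluster. Likeness was Pearson's r of log2 CPM over the 9 libraries, computed for 11516 genes; it rests on the same 3 group differences for every gene and is given as a description. Its median was 0.0422, and 94 genes exceeded 0.9. Among the most like GIMAP2 were 7 genes: IFIH1 (r = 0.995), a sensor of double-stranded RNA; CASP1 (0.992) and CASP4 (0.988), inflammatory caspases; PSMB9 (0.986), an immunoproteasome subunit; ERAP2 (0.985), which trims peptides for MHC class I; SAMD9 (0.982), an antiviral factor; and DTX3L (0.979), a ubiquitin ligase. GIMAP1 ranked 65th, at 0.919, and IRF2 itself ranked 4758th, at 0.316.

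IFIH1 averaged 10.2 ± 0.656 CPM in IRF2KO_pIRF2 libraries, 3.10 ± 0.755 CPM in IRF2KO libraries and 17.0 ± 2.82 CPM in WT libraries (SD, n = 3 each). ERAP2 averaged 2.38 ± 0.558 CPM in IRF2KO_pIRF2 libraries, 0.147 ± 0.0394 CPM in IRF2KO libraries, which is near the floor of detection, and 5.16 ± 1.31 CPM in WT libraries. DTX3L averaged 43.3 ± 1.17 CPM in IRF2KO_pIRF2 libraries, 21.6 ± 2.32 CPM in IRF2KO libraries and 62.1 ± 2.63 CPM in WT libraries. All of them followed the order of GIMAP2, lowest in IRF2KO and highest in WT, across a wide span of levels. SAMD9, also on chromosome 7 at chr7:93099513-93118023 and so outside the cluster, averaged 3.95 ± 0.409 CPM in IRF2KO_pIRF2 libraries, 0.386 ± 0.160 CPM in IRF2KO libraries and 7.78 ± 1.24 CPM in WT libraries.

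In size of the difference GIMAP2 stood among the larger of these genes. In IRF2KO_pIRF2 against IRF2KO the log2 fold change was 3.17 for GIMAP2, against 1.01 for DTX3L, 1.73 for IFIH1, 1.81 for CASP1, 2.51 for CASP4, 2.73 for PSMB9, 3.35 for SAMD9 and 3.97 for ERAP2. On the CPM scale, the mean of IRF2KO_pIRF2 libraries stood between 44.4% of the gap between IRF2KO and WT for ERAP2 and 60.7% for CASP1, and at 38.2% for GIMAP2 and 29.1% for GIMAP1. Both GIMAP genes were thus below these 7 in the share of the CPM gap, a difference that was not tested. Among genes named below, GBP3 stood at 33.25%, USP18 at 48.98% and MX1 at 57.93%. The order depends on the scale. In IRF2KO against WT the log2 fold change was -4.46 for GIMAP2, -2.46 for IFIH1 and -1.525 for DTX3L. Set against the rises above, GIMAP2 was not below IFIH1 or DTX3L on the log2 scale, though it was below the others. A few exonic bases overlap other genes in PSMB9 (5.66%) and DTX3L (3.70%), and those counts are uncertain to that extent. Of the 6 with a RefSeq promoter entry, 4 held AANNGAAA in the window searched for GIMAP2, namely IFIH1, CASP4, SAMD9 and DTX3L. The letters were found in 15.9% of the promoters of tested genes. These few genes were picked from the same data, and whether a protein binds there was not tested.

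**Figure D5:**
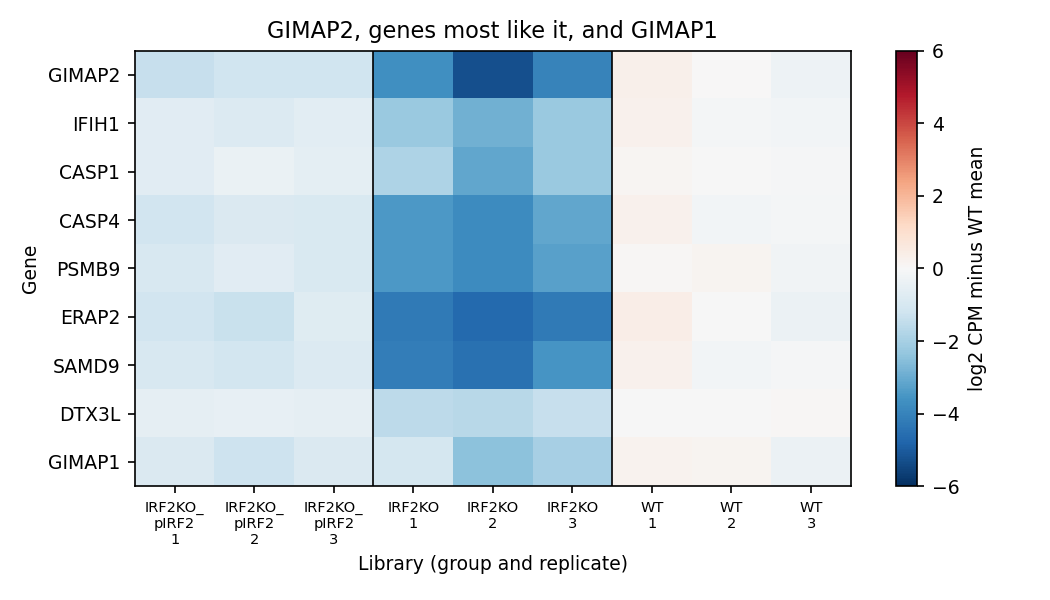
Log2 CPM minus the WT mean (colour, blue for lower and red for higher) in each of the 9 libraries (columns) for GIMAP2, 7 genes most like it in order of r, and GIMAP1 (rows). GIMAP2 spans -1.39 to -1.18 in IRF2KO_pIRF2 libraries, -5.25 to -3.70 in IRF2KO libraries and -0.33 to 0.31 in WT libraries, and the 7 genes show the same order of groups.

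Genes related to GIMAP2 by family or by place were then read from lists. Of 10 interferon-inducible GTPases of the dynamin superfamily, 7 were tested. None passed in IRF2KO_pIRF2 against IRF2KO (edgeR; 3 at an unadjusted p under 0.05, 1 by DESeq2, 0 by limma-voom), with a median log2 fold change of 0.12. None passed in IRF2KO_pIRF2 against WT (3 unadjusted, 0 by DESeq2 and 0 by limma-voom), with a median of -0.31. Over all tested genes 11.2% and 3.92% had an unadjusted p under 0.05 in these comparisons, in that order. In IRF2KO against WT, GBP3, a guanylate-binding protein, and MX1, an antiviral dynamin-like GTPase, passed with lower levels, beside 0.365% of all tested genes called lower, and the list's median was -0.43. GBP3 had 0.644, 0.595 and 0.477 CPM in IRF2KO_pIRF2 libraries, 0.0567, 0.101 and 0.169 CPM in IRF2KO libraries, where it was at the floor, and 2.27, 1.11 and 1.13 CPM in WT libraries. MX1 had 1.85, 2.33 and 2.0 CPM in IRF2KO_pIRF2 libraries, 1.19, 0.860 and 0.507 CPM in IRF2KO libraries, and 2.99, 2.74 and 3.08 CPM in WT libraries. Both genes had the group order of GIMAP2, and both were named because they passed in IRF2KO against WT.

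Among 22 genes of interferon signalling and the interferon regulatory factors, 19 were tested. In IRF2KO against WT, IRF2 and USP18, a protease that removes ISG15 and dampens interferon signalling, passed with lower levels. Over all tested genes 0.365% were called lower in that comparison. In IRF2KO_pIRF2 against WT, IRF2 alone passed, with a lower level, where 0.0434% of all tested genes were called lower. None passed in IRF2KO_pIRF2 against IRF2KO by edgeR, where 3 had an unadjusted p under 0.05, beside 11.2% of all tested genes. DESeq2 called 1 there and limma-voom called 0. USP18 had 4.21, 2.78 and 4.15 CPM in IRF2KO_pIRF2 libraries, 2.44, 1.67 and 2.03 CPM in IRF2KO libraries, and 5.46, 5.03 and 5.85 CPM in WT libraries. The list's median log2 fold change was near 0 in all 3 comparisons, at -0.04, -0.04 and 0.04 in the order IRF2KO_pIRF2 against IRF2KO, IRF2KO_pIRF2 against WT and IRF2KO against WT.

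Structural relatives and partners of GIMAP proteins were read beside the 0.0781% to 0.417% of all tested genes called per comparison, a share at which lists of this length hold few calls or none. None of the 10 tested septins, 21 tested lipid droplet proteins, 17 tested ATG8 autophagy proteins and 15 tested BCL2 family members was called by edgeR in any of the 3 comparisons. The median log2 fold change in IRF2KO_pIRF2 against IRF2KO was 0.0050 for the septins, -0.11 for lipid droplet proteins, 0.0045 for ATG8 autophagy proteins and -0.13 for the BCL2 family. At an unadjusted p under 0.05 that comparison had 2 septins, 3 lipid droplet proteins, 1 ATG8 autophagy protein and 2 BCL2 family members, beside 11.2% of all tested genes; DESeq2 called 1 lipid droplet protein and limma-voom called 0. In IRF2KO against WT the medians were -0.11 for septins, -0.07 for lipid droplet proteins, -0.09 for ATG8 autophagy proteins and 0.22 for the BCL2 family, with 1, 5, 1 and 2 members at an unadjusted p under 0.05 in that order, beside 18.7% of all tested genes, with 2 lipid droplet proteins called by DESeq2 and 0 by limma-voom. In IRF2KO_pIRF2 against WT no member of these lists had an unadjusted p under 0.05. A p above the threshold does not show that these levels were equal.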

How the data were processed

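RNA of 9 U937 libraries was read as 1 deposited table of whole-number counts per gene, to which the authors applied no scaling. Per the labels, libraries were made with a Lexogen SENSE mRNA-Seq kit. The submitters' processing notes name HTSeq 0.9.1, TopHat2 2.1.1, Bowtie2 2.3.3, bedtools and SAMtools, and the hg38 build. Their roles, the strand setting and the annotation release were not given in the sources used here, so reads on overlapping genes may have been split or dropped. GENCODE 29 named 20012 of the 20265 rows; 5317 rows had no count.

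Groups came from the labels. The main test was the quasi-likelihood F-test in edgeR 4.0.16 (R 4.3.3), after filterByExpr and TMM scaling, with all 9 libraries in 1 fit with no covariate, over 11517 genes, with Benjamini-Hochberg adjustment and a threshold of 0.05. CPM are TMM-normalised, and likeness used log2 CPM with a prior count of 2. Gene lists were described by counts and medians only. Promoters came from RefSeq on GRCh38.p14.

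Named genes were all 7 members, the 8 genes with the highest r with GIMAP2, called members of the lists (up to 4 each), called neighbours and IRF2. Results for 1 gene under this rule are not reported here. Other genes and markers named were chosen after their values were seen. Members and lists were chosen with earlier results of these data known. Alternatives were DESeq2 1.42.0, limma-voom (limma 3.58.1), RLE size factors, no low-count filter, fits of only the groups compared, library sizes without mitochondrially encoded genes, the replicate number as a block, and each library left out in turn. Both end libraries left out, the mitochondrial share as a term, and only libraries over 15% mitochondrial counts were added after seeing the data.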

Additional observations from a re-analysis of the deposited data

How the results depend on the processing

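The rise of GIMAP2 in IRF2KO_pIRF2 against IRF2KO kept its call in all 19 alternatives (adjusted p from 2.6e-16 to 0.01), and 1 member was called in each. The IRF2KO libraries in these fits helped to single out GIMAP2, so low values there favour a rise under every setting. The alternatives reuse the same libraries and are not separate support. In IRF2KO_pIRF2 against WT the count of called members was 1 rather than 0, and GIMAP2 passed, with DESeq2 (log2 fold change -1.29, adjusted p = 5.6e-05), with no low-count filter (-1.29, 0.038), with only the groups compared in the edgeR fit (-1.29, 0.022), and with both end libraries left out, an alternative chosen after seeing the data (-1.12, 0.0045). Leaving out 1 library at a time gave -1.44 to -1.12 and 0 to 1 called members, and the call came without IRF2KO replicate 2. In IRF2KO against WT, the contrast that chose the cluster, the counts are a description and support nothing: 2 members rather than 1 were called with DESeq2, limma-voom, no low-count filter and the mitochondrial share as a term, the last chosen after seeing the data. Leaving out 1 library gave 1 to 2 called members, with 2 without WT replicate 3 or without IRF2KO replicate 1. The GIMAP2 log2 fold change there was -3.87 with both end libraries left out and -4.85 to -4.04 with 1 library left out. Gene lists had 5 calls over the 3 comparisons, 14 with DESeq2 and 3 to 6 with 1 library left out, the lowest without IRF2KO replicate 3. The cause of these changes was not tested. Replicate numbers did not pair the libraries: deviations of same-numbered libraries correlated at -0.43 to 0.61, over 0.1 in 2 of 9 pairs. With the replicate block, GIMAP2 changed by 3.19 in IRF2KO_pIRF2 against IRF2KO (adjusted p = 0.0019, edgeR), -1.27 in IRF2KO_pIRF2 against WT (0.23) and -4.45 in IRF2KO against WT, and calls over all genes were 36, 7 and 39 rather than 42, 9 and 48 in that order. DESeq2 called 68, 39 and 121 genes. Depth limits the 5 members with at most 4 counts per library, for which no group difference could be detected.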
